A study of Mus musculus with 40 samples.

Results

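The genes described here are 7 genes of vitamin C (ascorbate) synthesis and transport, namely Ugp2, Ugdh, Akr1a1, Gulo, Miox, Slc23a1 and Slc23a2, out of 55382 genes in the kidney table and 55335 in the aorta table. All 7 were present in both tables, and they were found by their gene symbol. Gulo was picked for its strong rise under a high fat diet (HFD) in these same kidneys, and the other 6 were chosen for belonging to the same pathway. The values of Gulo under HFD in kidney are therefore given as a description without a test, and Gulo is left out of every count of genes called under HFD in kidney.

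Mice make ascorbate from glucose. Glucose 1-phosphate is joined to UTP by Ugp2, UDP-glucose is oxidised to UDP-glucuronate by Ugdh, glucuronate released from it is reduced to gulonate by Akr1a1, and gulonolactone is finally oxidised by Gulo, the enzyme whose gene is lost in humans and which in mice is best known from the liver. The kidney filters ascorbate and takes it back in the proximal tubule through Slc23a1, while Slc23a2 brings it into most other cells. Miox, a marker of the proximal tubule, opens the ring of myo-inositol and is a further source of glucuronate.

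RNA was sequenced from kidneys and aortas of mice with EGFR in endothelial cells (EC-EGFR-WT) or without it (EC-EGFR-KO), with 5 libraries for each genotype and diet in each tissue. From 6 weeks of age the mice ate a standard fat diet (SFD, written SD in the labels, with fat as 10% of its energy) or HFD (60%), and the feeding lasted 18 weeks. EC-EGFR-KO animals came from EGFRflox/flox C57BL/6 mice crossed with B6.Cg-Tg(Tek-cre)1Ywa/J, and the study's methods state that WT animals carried the Cre, driven by the Tie2 promoter, but no loxP sites. That Cre is not inducible and is known to act in blood cells as well as in endothelium. HFD animals received a mixture of both diets before the change to HFD alone. Sex and the hour of tissue collection were not given in the sources used here.

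Library totals ranged from 19643033 to 48833447 counts in kidneys and from 17520161 to 36452741 in aortas. In each tissue the 2 deepest libraries carried different labels but nearly the same counts. Kidneys a1 (EC-EGFR-KO, HFD) and a12 (EC-EGFR-WT, HFD) had a median chi-square over genes of 0.0257, where sampling noise alone gives 0.455 and the other 189 pairs of kidneys gave at least 1.58. Aortas R-1 (EC-EGFR-WT, SFD) and R-12 (EC-EGFR-KO, SFD) had 0.0271, against at least 1.54 in the other 189 pairs. These pairs differed by less than the sampling noise although they stood in different groups. The main values of Gulo and Ugdh in kidney are therefore also given without a1 and a12. Unless stated, other values include both libraries of a pair. Egfr, counted over the whole gene in whole tissue, did not mark the genotypes (log2 fold change of KO over WT -0.09 under SFD and 0.06 under HFD in kidney, edgeR adjusted p = 1.00 and 0.947; 0.15 and 0.13 in aorta, adjusted p = 1.00 and 0.916), and a deletion of its first exon in endothelium alone need not show in such counts. The labelled tissues carried their markers. The 10 proximal tubule genes summed to between 13442 and 18084 FPM in kidneys and between 1.21 and 2.68 FPM in aortas, and the smooth muscle genes with counts (Myh11, Acta2 and Smtn) summed to at least 24903 FPM in every aorta. FPM stands for counts scaled to a TMM-normalised library size of 1e6, and p-values measure the spread between these libraries.

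All coordinates are those of GRCm38 with GENCODE M21 annotation. Ugp2 (ENSMUSG00000001891) lies at chr11:21321138-21371201, Ugdh (ENSMUSG00000029201) at chr5:65413221-65435949, Akr1a1 (ENSMUSG00000028692) at chr4:116636510-116651680, Gulo (ENSMUSG00000034450) at chr14:65986786-66009207 and Slc23a2 (ENSMUSG00000027340) at chr2:132052496-132145108, all on the minus strand, while Miox (ENSMUSG00000022613) lies at chr15:89334398-89337015 on the plus strand. Ugdh shared 158 bases of exon (2.34% of its exon length) with Gm43552 on the same strand, and Ugp2 shared 78 bases (2.54%) with Gm12043 on the opposite strand, so reads in those stretches cannot be assigned with certainty.

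The stretches just before the start sites of Ugdh and Miox are shown for the following reasons. Of the members tested under HFD in kidney, which leave out Gulo, Ugdh was the one called. Miox was the member with the highest level per length in kidney. Both come from RefSeq promoter windows of GRCm38.p6, read 5′ to 3′ on the strand of the gene and cut before the first annotated base of the transcript. The Ugdh stretch is chr5:65435950-65436092 on the minus strand and the Miox stretch is chr15:89334223-89334397 on the plus strand. Capitals mark matches to the core of the antioxidant response element, TGACNNNGC, on either strand.
Ugdh: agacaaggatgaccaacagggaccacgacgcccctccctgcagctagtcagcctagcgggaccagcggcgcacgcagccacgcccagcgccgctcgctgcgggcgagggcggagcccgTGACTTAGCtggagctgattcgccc
Miox: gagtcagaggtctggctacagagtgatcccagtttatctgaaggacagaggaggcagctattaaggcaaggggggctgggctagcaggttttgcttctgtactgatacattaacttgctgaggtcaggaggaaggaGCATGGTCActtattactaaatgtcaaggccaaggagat
The Ugdh stretch of 143 bases had 69.9% G and C and 15 CpG, whereas the Miox stretch of 175 bases had 48.6% and 0 CpG. Of the 32851 full-length windows in the table, 12.4% held the antioxidant core, 13.6% held TATAAA and 37.4% held CCAAT, all on either strand. Among the windows of the members, the antioxidant core occurred in those of Ugdh (2 matches) and Miox (1 match), CCAAT in 1 window each of Ugp2 and Slc23a2 (2 matches each), and TATAAA in that of Miox (1 match). The full windows run past the stretches shown, and 1 core match of Ugdh and the TATAAA of Miox do not lie within those stretches. Such matches describe the letters of these windows and carry no statement on binding. Windows of Gulo and Slc23a1 were not used here.

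The rank order of the members per length, in FPM per kilobase of exon, differed between the tissues. In kidney, Miox had the highest level (1300 ± 203, SD, n = 20), followed by Akr1a1 (904 ± 104), and their ranges overlapped (942 to 1753 and 732 to 1122). Slc23a1 (80.8 ± 6.60) and Ugp2 (62.4 ± 3.97) came next, with overlapping ranges (70.3 to 93.3 and 55.6 to 71.6). Ugdh (18.0 ± 3.35) stood apart from its neighbours in that order. Slc23a2 had 2.35 ± 0.465, and Gulo, at the bottom under SFD with 0.0637 ± 0.0524 (n = 10), had 3.15 ± 1.15 (n = 10) under HFD, where its range of 1.62 to 4.82 overlapped that of Slc23a2 (1.63 to 3.50).

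In aorta the order per length was Akr1a1 (181 ± 25.9 FPM per kilobase, SD, n = 20), Ugp2 (38.3 ± 2.77), Ugdh (9.75 ± 0.759), Slc23a2 (6.77 ± 1.81) and Slc23a1 (0.178 ± 0.0839). The ranges of Ugdh (8.09 to 10.9) and Slc23a2 (3.89 to 10.1) overlapped, and the others did not. Gulo had 7 counts over the 20 aortas, in 4 libraries, and Miox had 0, which allows up to between 0.0844 and 0.176 FPM per library, a limit of 3 counts that covers counting error only. The ascorbate transporters stood in opposite order, Slc23a1 above Slc23a2 in every kidney and below it in every aorta. The tables were normalised separately, so levels are set side by side and not tested between tissues.

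**Figure D1:**
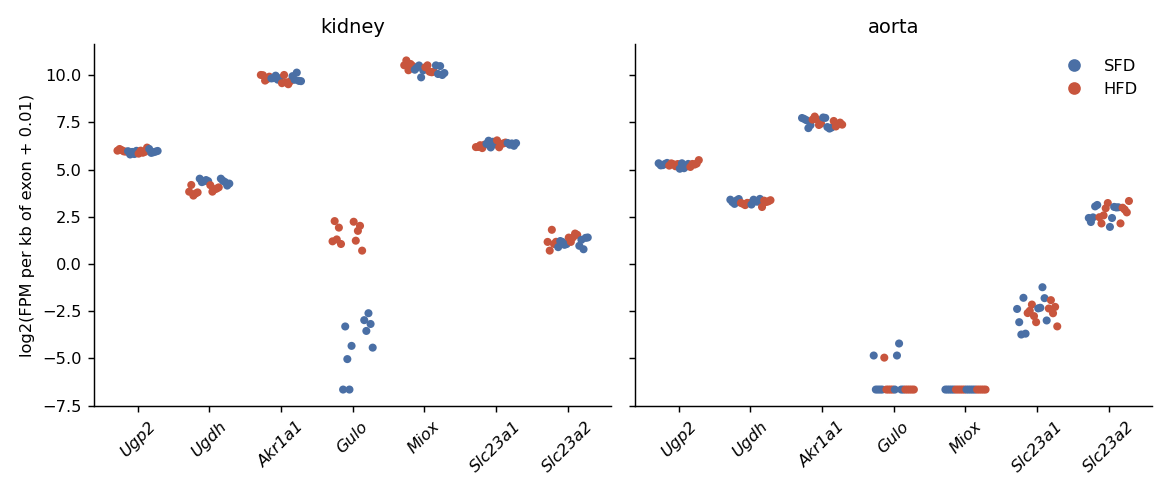
Levels of the 7 genes per kilobase of exon, on a log2 scale after 0.01 was added, in 20 kidneys (left) and 20 aortas (right), each point a library coloured by diet. Gulo is split by diet in kidney alone, and Miox is at 0 in the aortas.

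Gulo was nearly silent in kidneys under SFD and present in every kidney under HFD. In EC-EGFR-WT kidneys under SFD it had 8, 4, 8, 6 and 2 counts, or 0.266, 0.172, 0.350, 0.228 and 0.0827 FPM. Under HFD the EC-EGFR-WT kidneys had 253, 252, 198, 248 and 92 counts, or 10.7, 5.31, 7.62, 9.17 and 3.68 FPM. The lowest HFD kidney of this genotype stood well above the highest SFD kidney, and the group means were 0.220 ± 0.1003 and 7.29 ± 2.83 FPM (SD, n = 5).

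The EC-EGFR-KO kidneys had the same pattern. Under SFD they had 0, 5, 1, 0 and 2 Gulo counts, or 0, 0.206, 0.0466, 0 and 0.0898 FPM, so that 4 of 5 lay below the limit of 3 counts. Under HFD they had 246, 211, 127, 196 and 99 counts, or 5.18, 10.9, 5.56, 8.59 and 4.70 FPM. The mean was 0.0685 ± 0.0856 FPM with SFD and rose to 6.99 ± 2.67 FPM with HFD (SD, n = 5), and again no value of one diet reached the other.

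The ratio of the Gulo means was 33.2 in EC-EGFR-WT and 102 in EC-EGFR-KO, and the fitted log2 fold changes were 5.01 and 6.52. As Gulo was picked on this difference, no p-value is attached to it. The denominators rest on 28 counts over 5 libraries in EC-EGFR-WT and 8 over 5 in EC-EGFR-KO, which leaves the ratios imprecise. Without a1 and a12 the HFD means were 7.78 ± 3.003 FPM in EC-EGFR-WT and 7.44 ± 2.85 FPM in EC-EGFR-KO (SD, n = 4), with fitted changes of 5.11 and 6.60. Without the EC-EGFR-KO SFD kidney a7, which holds 5 of the 8 counts, the fitted change in EC-EGFR-KO was 7.48.

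**Figure D2:**
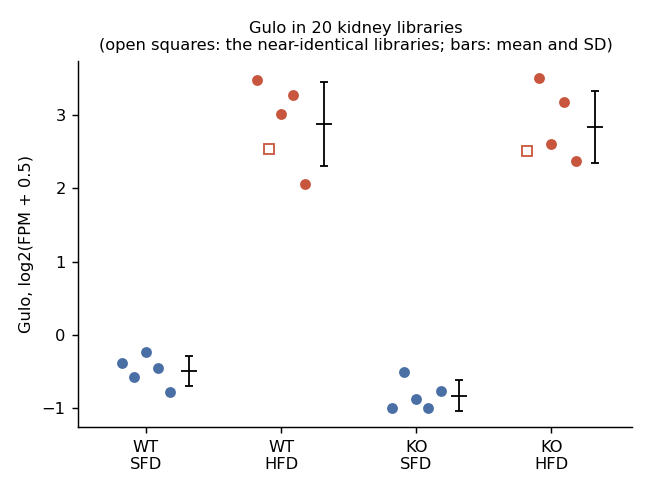
Gulo in 20 kidney libraries as log2(FPM + 0.5), by genotype and diet, with group mean and SD (n = 5) as bars and the near-identical libraries a1 and a12 as open squares. The HFD libraries of both genotypes lie above all SFD libraries.

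Under HFD, where the choice of Gulo did not compare the genotypes, its level was not called different between them. The log2 fold change of EC-EGFR-KO over EC-EGFR-WT was -0.06 (SE 0.33, 95% interval -0.76 to 0.63, edgeR adjusted p = 0.974). Kidneys a1 and a12 stand on opposite sides of this comparison, so their nearly equal counts draw it toward 0. Under SFD, Gulo had 28 counts in all in EC-EGFR-WT and 8 in EC-EGFR-KO, and no test is given there, since Gulo passed the filter on low counts through its HFD kidneys. For the same reason the ratios of 33.2 and 102 were not tested against each other.

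Other cell and sex markers moved with diet in the same kidneys. In the HFD effect averaged over genotypes, 16.4% of all 15943 genes tested were called. Both a1 and a12 stand on the HFD side of this effect, and without them 2361 of 16043 genes tested were called, against 2615 with them. Calls of the marker genes, and of the further pathway genes below, are given with both libraries only. Of 10 hepatocyte genes, of which 7 could be tested, Ttr, Fgb and Serpinc1 rose under HFD (log2 fold changes averaged over genotypes 2.01, 2.20 and 1.71, edgeR adjusted p = 1.46e-08, 0.00104 and 4.51e-09) and 4 were not called. Alb, the most abundant transcript of liver, went from 8.78 ± 2.28 to 13.97 ± 3.28 FPM in EC-EGFR-WT and from 21.4 ± 27.4 to 14.4 ± 2.67 FPM in EC-EGFR-KO (SD, n = 5), with a log2 fold change of 0.05 (edgeR adjusted p = 0.951). That value rests on a single EC-EGFR-KO SFD kidney, a7. It had 70.1 FPM of Alb and 5.78 FPM of Fgb where the other 4 of its group had at most 12.9 and 1.12 FPM. Its Ttr (125 FPM) and Serpinc1 (2.52 FPM) lay within the range of the other 4 (121 to 149 and 1.39 to 2.79 FPM). It also had the most Gulo of its group, at 5 counts against at most 2. Without a7, an alternative chosen after seeing the data, Alb rose by 0.66 (SE 0.16, edgeR adjusted p = 0.00720) averaged over genotypes, with 0.67 in EC-EGFR-WT and 0.65 in EC-EGFR-KO (adjusted p = 0.0732 and 0.122), and 5 of the 7 hepatocyte genes tested were higher. In that averaged effect without a7, 2402 of all 16097 genes tested were called. Ahsg and Cps1 had at most 0.902 and 0.200 FPM in any group mean, and Apoa1 lies in a stretch of the genome without counts in any library. The sum over the hepatocyte genes, most of which is Ttr, was 143 to 228 FPM under SFD and 451 to 911 FPM under HFD in EC-EGFR-WT, and 164 to 257 and 587 to 911 FPM in EC-EGFR-KO. Without a1 and a12 the HFD sums were 451 to 550 and 587 to 714 FPM.

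Of 8 genes known to be higher in male kidneys, 6 fell under HFD (Kap, Slc7a13, Cyp4a12a, Slco1a1, Acsm3 and Hsd11b1, log2 fold changes averaged over genotypes between -1.84 and -0.68) and 2 were not called. Of 4 known to be higher in female kidneys, Slc7a12, Prlr and Cyp4a14 rose (2.53, 2.46 and 1.62) and Abcc3 was not called. The summed male-biased genes ranged from 27204 to 51198 FPM under SFD and from 16908 to 25198 FPM under HFD in EC-EGFR-WT, and from 31138 to 37674 and 20163 to 27531 FPM in EC-EGFR-KO. Of 10 proximal tubule genes, Slc5a2 and Slc22a8 rose (0.83 and 0.59), Slc22a6 and Slc27a2 fell (-0.44 and -0.35) and 6 were not called, with sums of 13442 to 18084 FPM under SFD and 14226 to 15986 FPM under HFD. Of 9 genes of other kidney cells, Slc12a3 rose (0.43) and Slc12a1 fell (-0.41), of 9 adipocyte genes Lep rose (4.63) and Pnpla2 fell (-0.39), and of 3 smooth muscle genes tested 0 were called. The share called over all genes in the same averaged effect was 16.4%. The part of these shifts in the values of Gulo, of Ugdh and of the other members was not tested. In whole kidney, fewer cells of a type and less RNA per cell cannot be told apart.

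The other members of the pathway in kidney showed a fall of Ugdh and no further call under HFD. Of the 6 members other than Gulo, edgeR called 1 in EC-EGFR-WT (6.71% of all 15943 genes tested were called), 1 in EC-EGFR-KO (6.34%) and 1 in the average over genotypes (16.4%), and in each case it was Ugdh. With the study's further demands of a fold change over 1.5 and more than 5 FPM, 0 of 6 were called, against 2.18%, 2.16% and 2.92% of all genes. The DESeq2 Wald test also called 1 of 6 in each comparison.

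Ugdh, which makes the UDP-glucuronate used for ascorbate, for glucuronidation and for hyaluronan, was lower under HFD in both genotypes. EC-EGFR-WT kidneys under SFD had 155, 143, 136, 120 and 129 FPM of Ugdh, and those under HFD had 122, 96.0, 104, 107 and 112 FPM. A single HFD kidney, at 122 FPM, reached above the lowest SFD kidney, at 120 FPM. In EC-EGFR-KO the SFD kidneys had 155, 136, 140, 147 and 141 FPM and the HFD kidneys 95.8, 123, 83.1, 89.5 and 93.3 FPM. Here every HFD kidney lay below every SFD kidney.

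The means of Ugdh fell from 137 ± 13.2 to 108 ± 9.62 FPM in EC-EGFR-WT and from 144 ± 7.10 to 96.9 ± 15.2 FPM in EC-EGFR-KO (SD, n = 5). The log2 fold changes were -0.33 (SE 0.09, edgeR adjusted p = 0.0323) and -0.57 (SE 0.09, adjusted p = 6.14e-04), a fall by 20.7% and by 32.6%, and -0.45 averaged over genotypes (SE 0.07, adjusted p = 5.60e-05). Leaving out a1 and a12 gave -0.29 (adjusted p = 0.0833), -0.57 (adjusted p = 0.00171) and -0.43 (adjusted p = 2.81e-04), so the call in EC-EGFR-WT was lost while those in EC-EGFR-KO and in the average stood. Over 28 alternatives the adjusted p in EC-EGFR-WT ranged from 0.00812 to 0.103 and passed the threshold in 18. The call was lost, among others, when any of the kidneys a12, a13, a14, a15, a16, a17 or a18 was left out, with adjusted p-values between 0.0562 and 0.103. The HFD effects in the genotypes were not shown to differ (interaction -0.24, SE 0.13, edgeR adjusted p = 1.00). Across 19 kidneys, with a12 left out, Ugdh moved with the summed male-biased genes (r = 0.76, and 0.49 with group means removed) and opposite to the hepatocyte genes (r = -0.81, but 0.22 with group means removed), points that share library composition and diet.

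**Figure D3:**
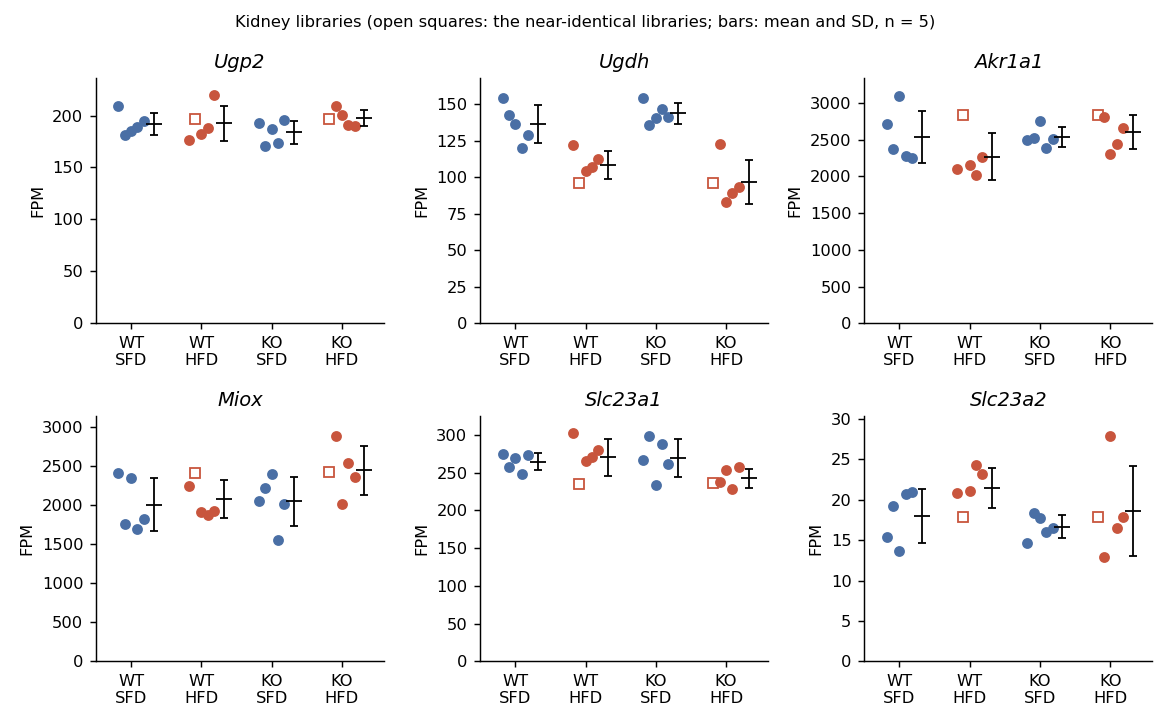
Levels of the 6 members other than Gulo in 20 kidney libraries in FPM, by genotype and diet, with group mean and SD (n = 5) as bars and the near-identical libraries a1 and a12 as open squares. Ugdh is lower under HFD, while the ranges of the diets overlap for the other 5 genes in both genotypes.

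The enzymes before and after Ugdh were not called. Ugp2, whose UDP-glucose also feeds glycogen, ranged from 171 to 220 FPM over all kidneys, with diet effects of 0.01 in EC-EGFR-WT (95% interval -0.13 to 0.14, edgeR adjusted p = 0.978) and 0.10 in EC-EGFR-KO (-0.04 to 0.24, adjusted p = 0.427) on the log2 scale. Akr1a1, an aldehyde reductase of broad use, ranged from 2013 to 3086 FPM, with log2 effects of -0.16 (-0.37 to 0.05, adjusted p = 0.408) and 0.04 (-0.17 to 0.25, adjusted p = 0.867). Both intervals for Ugp2 stayed within 0.24 of no change, and those for Akr1a1 within 0.37.

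Miox had 2414, 1760, 2354, 1698 and 1823 FPM in EC-EGFR-WT kidneys under SFD and 2253, 2418, 1915, 1874 and 1921 FPM under HFD. In EC-EGFR-KO it had 2060, 2224, 2406, 1556 and 2012 FPM under SFD and 2426, 2894, 2020, 2539 and 2362 FPM under HFD. The diets overlapped in both genotypes, with log2 effects of 0.05 (95% interval -0.22 to 0.31, edgeR adjusted p = 0.887) and 0.25 (-0.01 to 0.52, adjusted p = 0.281).

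Of the transporters, Slc23a1 (ENSMUSG00000024354, chr18:35614604-35627244, minus strand), which recovers ascorbate from the tubular fluid, had 265 ± 11.5 and 270 ± 24.6 FPM in EC-EGFR-WT under SFD and HFD and 269 ± 25.3 and 242 ± 12.5 FPM in EC-EGFR-KO (SD, n = 5). Its log2 diet effects were 0.03 (95% interval -0.12 to 0.18, edgeR adjusted p = 0.869) and -0.15 (-0.30 to 0.0017, adjusted p = 0.262). Slc23a2 ranged from 12.9 to 27.8 FPM, both within EC-EGFR-KO HFD (17.8, 12.9, 27.8, 16.5 and 17.9 FPM). Its log2 diet effects were 0.25 (-0.08 to 0.58, adjusted p = 0.411) and 0.16 (-0.17 to 0.49, adjusted p = 0.641).

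**Figure D4:**
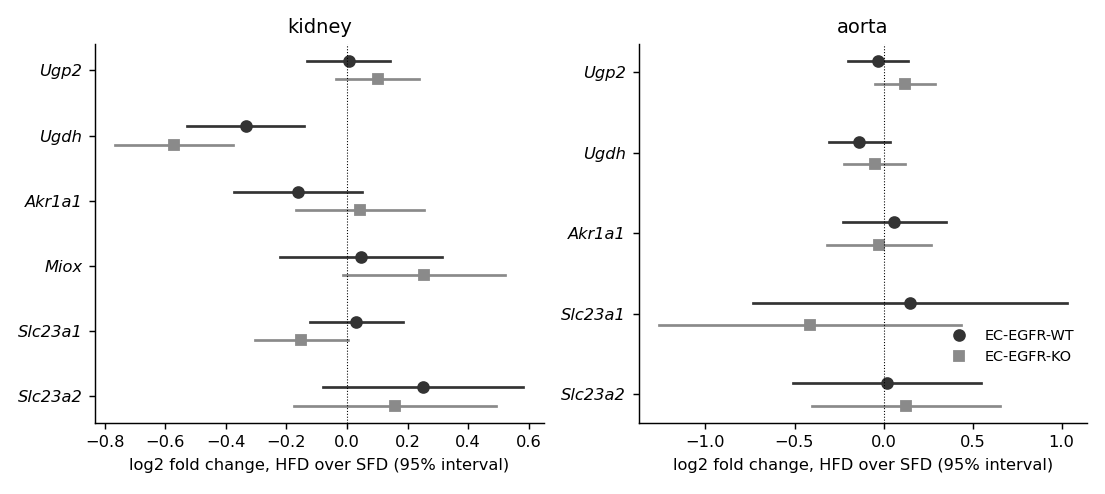
Log2 fold change of HFD over SFD with its 95% interval from edgeR for the members other than Gulo in kidney (left, 6 genes) and aorta (right, 5 genes), circles for EC-EGFR-WT and squares for EC-EGFR-KO. In kidney both Ugdh intervals lie below 0, and in aorta every interval spans 0.

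The comparison of EC-EGFR-KO with EC-EGFR-WT, which asks for an effect of endothelial EGFR, called none of these genes. In kidney, edgeR called 0 of 7 members under HFD and 0 of the 6 other than Gulo under SFD and in the interaction, as for all 15943 genes (0%, 0% and 0% called). An unadjusted p under 0.05 was reached by 1 member under HFD and by 0 under SFD and in the interaction, and DESeq2 called 0 in each. The member under HFD was Slc23a1, with a log2 fold change of -0.16 (95% interval -0.31 to -0.0037, edgeR unadjusted p = 0.0452, adjusted p = 0.814). For Akr1a1 under HFD the difference was 0.20 (-0.01 to 0.41), for Miox 0.24 (-0.03 to 0.50) and for Ugdh -0.16 (-0.35 to 0.03), each with an edgeR adjusted p of 0.814. Kidneys a1 and a12 stand on opposite sides of this comparison, so their nearly equal counts draw its differences toward 0. Without them the HFD means in EC-EGFR-KO and EC-EGFR-WT were 244 and 279 FPM for Slc23a1 (n = 4). Those of Akr1a1 were 2550 and 2130 FPM, of Miox 2454 and 1991 FPM and of Ugdh 97.2 and 111 FPM. In every alternative, 0 members were called under HFD.

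In aorta, 5 members passed the filter on low counts (Ugp2, Ugdh, Akr1a1, Slc23a1 and Slc23a2), and 0 of 5 were called in any comparison. Of all 15122 genes tested, 0.0132% were called for HFD in EC-EGFR-WT, 0% in EC-EGFR-KO and 0.0529% in the average, and 0% in the comparisons of the genotypes under SFD, under HFD and in the interaction. In each of these, 0 of 5 members had an unadjusted p under 0.05 and DESeq2 called 0. Aortas R-1 and R-12 stand on opposite sides of the genotype comparison under SFD, so their nearly equal counts draw its differences toward 0. Without them, edgeR called some genes between the genotypes under HFD, but 0 members, as given at the end. Ugdh, the gene that fell in kidney, had 68.2 ± 4.85 and 62.0 ± 2.101 FPM in EC-EGFR-WT aortas under SFD and HFD and 67.7 ± 5.32 and 65.4 ± 6.22 FPM in EC-EGFR-KO (SD, n = 5). Its log2 effect averaged over genotypes was -0.09 (95% interval -0.21 to 0.03, edgeR adjusted p = 0.879). Slc23a1, which had 249 counts over all aortas, gave the widest intervals, such as -0.12 to 1.58 around a log2 fold change of 0.73 for EC-EGFR-KO over EC-EGFR-WT with SFD (edgeR adjusted p = 1.00).

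Slc23a2 spread widely among aortas of the same group. It had 43.0, 37.1, 43.9, 65.8 and 69.3 FPM in EC-EGFR-WT under SFD and 44.2, 35.1, 47.2, 61.5 and 74.5 FPM under HFD. In EC-EGFR-KO it had 31.0, 43.0, 64.6, 63.3 and 63.7 FPM under SFD and 35.2, 62.6, 58.5, 52.8 and 80.3 FPM under HFD. The spread within each group was far wider than the distance between the group means, and its log2 diet effects were 0.02 (95% interval -0.51 to 0.55) and 0.13 (-0.40 to 0.65).

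Akr1a1 ran opposite to it. The same aortas, in the same order, had 583, 564, 539, 403 and 450 FPM of Akr1a1 in EC-EGFR-WT under SFD, and 551, 615, 555, 452 and 475 FPM under HFD. In EC-EGFR-KO they had 595, 585, 418, 396 and 412 FPM under SFD and 523, 428, 464, 493 and 457 FPM under HFD. In 3 of the 4 groups the aorta with the most Akr1a1 had the least Slc23a2, and in the fourth, EC-EGFR-WT under SFD, it had the second lowest level. Over 19 aortas, with R-12 left out, the correlation of log2 levels was r = -0.84, and r = -0.89 once the group means were removed. The smooth muscle genes moved with Akr1a1 (r = 0.86) and opposite to Slc23a2 (r = -0.70), and so did the adipocyte genes (r = 0.46 and r = -0.57). These points share library composition, and the part of tissue makeup in them was not tested. In 19 kidneys without a12, the correlation of Akr1a1 with Slc23a2 was also negative (r = -0.75, and -0.68 with group means removed), and Akr1a1 moved there with Miox (r = 0.63 and 0.73) and with the male-biased genes (r = 0.66 and 0.82).

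The genes whose levels across 19 kidneys, a1 left out, were most like those of Gulo among 13515 genes with a mean of at least 1 FPM over all kidneys were Etv4 (r = 0.97), Clic6 (r = 0.96), Gc (r = 0.96), Apoe (r = 0.96) and Slc6a7 (r = 0.96), over log2(FPM + 0.5). Since Gulo was picked for its rise under HFD, genes most like it over both diets rise as well by construction. Etv4, an ETS transcription factor, went from 0.852 to 4.53 FPM in EC-EGFR-WT and from 0.739 to 4.22 FPM in EC-EGFR-KO. Gc, the vitamin D binding protein, went from 23.6 to 124 and from 25.9 to 139 FPM. Apoe, an apolipoprotein, went from 165 to 720 and from 178 to 819 FPM. With group means removed, the 5 most alike were Slc6a7 (r = 0.81), B3gnt8 (r = 0.79), Def6 (r = 0.79), Gm6614 (r = 0.76) and Hoxb5 (r = 0.76). These are the largest r among 13515 genes and were not tested. Gulo had at most 8 counts in any SFD kidney, so they rest largely on the HFD kidneys. Among the members, Ugdh had r = -0.78 with Gulo across the kidneys and r = 0.39 once group means were removed, so the opposite course lay between the diets and not among kidneys of a group.

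Around the members, the genes of the same routes changed in both directions in kidney, read here from the effect averaged over genotypes, in which 16.4% of all genes were called and the median log2 change of all genes was -0.0012. Of 5 further genes around the route from glucose to gulonolactone (Pgm1, Pgm2, Uxs1, Gusb and Rgn), which lie before it, beside it or on it, 4 were tested, 1 rose and 3 fell (median log2 change -0.22). Taken singly, EC-EGFR-WT had 1 rise and 1 fall, and EC-EGFR-KO had 1 rise and 0 falls (6.71% and 6.34% of all genes called). Pgm2, a phosphoglucomutase, rose from 9.14 to 13.9 FPM in EC-EGFR-WT and from 9.60 to 13.9 FPM in EC-EGFR-KO (log2 0.57, edgeR adjusted p = 4.62e-05). Gusb, the lysosomal enzyme that frees glucuronate from glucuronides, fell from 72.4 to 42.4 and from 60.4 to 47.2 FPM (-0.56, adjusted p = 0.00106). Pgm1 (-0.24, adjusted p = 0.0157) and Uxs1, which turns UDP-glucuronate into UDP-xylose (-0.20, adjusted p = 0.0169), fell by less. Rgn, the gluconolactonase that closes the ring before Gulo, lies on chromosome X, where no library has counts.

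Of the 6 genes of the branch from uronates to xylulose, 5 were tested and 1 was called. Akr1b3, the aldose reductase of the polyol route, fell from 128 to 60.5 FPM in EC-EGFR-WT and from 96.0 to 70.2 FPM in EC-EGFR-KO (log2 -0.76, edgeR adjusted p = 0.00466). The list's median was -0.08. Taken singly, EC-EGFR-WT had 1 fall and EC-EGFR-KO had 0 calls (6.71% and 6.34% of all genes called).

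Of the listed UDP-glycosyltransferases, the Ugt1a and Ugt2b families spend the product of Ugdh on drugs, steroids and bilirubin, while Ugt3a1 and Ugt3a2 use other UDP-sugars. Together the list had 3 calls upward and 3 downward among 12 tested of 21 (median log2 change -0.18). Taken singly, EC-EGFR-WT had 3 rises and 3 falls, and EC-EGFR-KO had 2 rises and 3 falls (6.71% and 6.34% of all genes called). Ugt1a10 rose from 0.445 to 7.17 FPM in EC-EGFR-WT and from 0.635 to 4.57 FPM in EC-EGFR-KO (log2 3.42, edgeR adjusted p = 7.55e-07), Ugt1a2 rose but had at most 1.08 FPM in a group mean (1.94, adjusted p = 9.68e-04), and Ugt2b34 rose from 18.6 to 45.2 and from 16.7 to 43.1 FPM (1.33, adjusted p = 3.57e-04). The members of the Ugt1a cluster share their last exons, so their counts cannot be assigned with certainty. The more abundant renal genes fell. Ugt2b38 went from 1270 to 729 and from 1143 to 789 FPM (-0.67, adjusted p = 2.32e-05), Ugt3a1 from 491 to 279 and from 465 to 261 FPM (-0.83, adjusted p = 9.82e-07) and Ugt3a2 from 1679 to 1333 and from 1594 to 1251 FPM (-0.34, adjusted p = 2.19e-04).

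Of 17 genes for uptake of oxidised ascorbate and its recycling, 16 were tested, 4 rose and 2 fell (median log2 change -0.01). Taken singly, EC-EGFR-WT and EC-EGFR-KO each had 2 rises and 1 fall (6.71% and 6.34% of all genes called). Gsto1, a glutathione transferase with dehydroascorbate reductase activity, rose from 23.3 ± 4.13 to 43.5 ± 5.11 FPM in EC-EGFR-WT and from 23.1 ± 2.87 to 44.9 ± 4.70 FPM in EC-EGFR-KO (SD, n = 5, log2 0.93, edgeR adjusted p = 1.28e-07). The transporters Slc2a2 (0.50, adjusted p = 3.80e-04), Slc2a10 (0.65, adjusted p = 0.0375, at most 1.11 FPM in a group mean) and Slc2a8 (0.22, adjusted p = 0.0497) rose. Txnrd1, a thioredoxin reductase, fell (-0.28, adjusted p = 0.0198), and so did Cyb561, which passes electrons from ascorbate across membranes (-0.32, adjusted p = 0.00352).

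Of 20 enzymes that use ascorbate as a cofactor, 16 were tested, 2 rose and 2 fell (median log2 change -0.01). Taken singly, EC-EGFR-WT had 2 rises and 1 fall, and EC-EGFR-KO had 0 calls (6.71% and 6.34% of all genes called). The DNA demethylase Tet1 (0.64, edgeR adjusted p = 0.0136) and the collagen prolyl 3-hydroxylase P3h1 (0.18, adjusted p = 0.0131) rose. Hpd, of tyrosine breakdown (-0.57, adjusted p = 0.0322), and the prolyl 4-hydroxylase subunit P4ha2 (-0.17, adjusted p = 0.0256) fell. In aorta, 40 genes of these 5 lists were tested in the effect averaged over genotypes, and edgeR called 0, with 2 at an unadjusted p under 0.05 and 0 called by DESeq2.

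**Figure D5:**
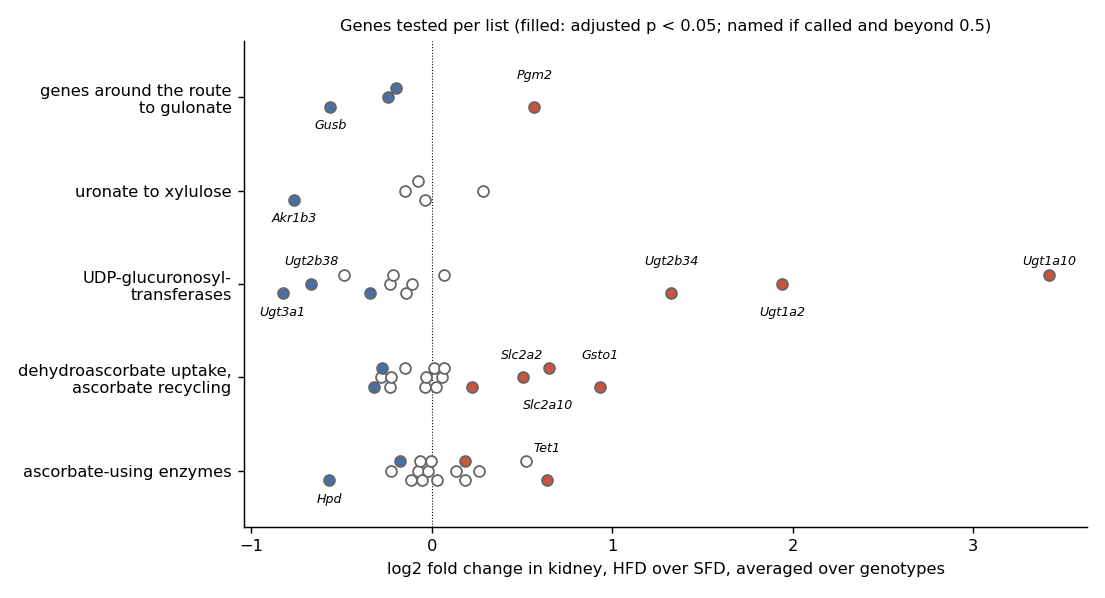
Log2 fold change of HFD over SFD in kidney, averaged over genotypes, for the genes tested of 5 lists around ascorbate, each point a gene, filled in red (higher) or blue (lower) where the edgeR adjusted p was under 0.05. Calls fall on both sides of 0 in 4 of the 5 lists.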

How the data were processed

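The 7 genes and the lists were chosen with earlier results of these data known. Per the labels, the authors aligned reads to mm10 with HISAT2 2.1.0 (the study's methods name Tophat2 instead), obtained gene counts from featureCounts, and deposited the counts without normalization. Whether strand was used, and how multiply mapped reads were treated, is not given in the sources used here. The tables hold 0 in every library for 24644 of 55382 genes in kidney and 25742 of 55335 in aorta. These include every gene of chromosomes 9, X, Y and MT and those at the end of chromosome 8, and were not tested. On chromosome 8, 1192 of 2535 genes in kidney and 1152 of 2528 in aorta had counts. With no counts on X and Y, sex cannot be read from the genes of those chromosomes.

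Each tissue was fitted on its 20 libraries with edgeR 4.0.16 in R 4.3.3 (TMM, filterByExpr, robust quasi-likelihood test, 4 groups of 5 formed from the labels), with Benjamini-Hochberg adjustment over 15943 genes in kidney and 15122 in aorta. A gene was called at an adjusted p under 0.05. Contrasts were HFD over SFD in each genotype and averaged, EC-EGFR-KO over EC-EGFR-WT under each diet, and the interaction. The biological coefficient of variation was 22.3% in kidney and 29.0% in aorta. Levels per length used the merged exons of GENCODE M21. Named genes were the members, the genes called in each list in kidney or aorta (at most 4 each way), and the 5 most like Gulo by each measure. Tests of Gulo that use its SFD kidneys, planned at first, are not reported. The fits were tested on simulated data. Alternatives were DESeq2 1.42.0 (Wald test, or its size factors in edgeR), other filters on low counts, the study's own threshold, no robust estimation, a clock or adipocyte score as covariate, and leaving out libraries.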

Additional observations from a re-analysis of the deposited data

Results flagged for a closer look

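Of 51 groups of 5 libraries tested for a value far from the others, 3 held one, where chance gives about 1 in 20. The EC-EGFR-KO HFD aorta R-16 had 54.6 FPM of Ugdh, below the next lowest of its group at 65.7 FPM, and it also had the least Slc23a2 and the most Akr1a1 of that group. The EC-EGFR-WT HFD aorta R-6 had 0.0504 FPM of Gulo, which is 1 count, while the other 4 of its group had 0. The EC-EGFR-WT SFD aorta R-1, one of the near-identical libraries, had 0.0563 FPM of Gulo, which is 2 counts, while the other 4 had 0. Both Gulo values lie under the limit of 3 counts.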

How the results depend on the processing

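In kidney, the count of members other than Gulo called under HFD in EC-EGFR-WT went from 1 to 0 without a filter on low counts, without both near-identical libraries, without the kidneys a8, a9 and a17 (chosen for high immediate-early genes) and under the study's threshold on fold and level, and lay between 0 and 1 when 1 library was left out. The counts in EC-EGFR-KO and in the average over genotypes went from 1 to 0 under the study's threshold alone. Ugdh in EC-EGFR-WT then had -0.32 (adjusted p = 0.0740), -0.29 (adjusted p = 0.0833) and -0.32 (adjusted p = 0.0863) in edgeR under the first 3 of these. Its calls in EC-EGFR-KO and in the average passed the threshold in 28 of 28 alternatives. Without a8, a9 and a17 the fitted change of Gulo in EC-EGFR-KO was 6.00. Of the SFD kidneys of that genotype, a8 and a9 held 1 and 0 Gulo counts, and the remaining a6, a7 and a10 held 0, 5 and 2. The cause of these shifts was not tested.

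Some effects near 0, none of them called, changed sign. In EC-EGFR-WT kidneys under HFD, Ugp2 gave -0.0024 and Miox -0.014 without both near-identical libraries, and Ugp2 gave -0.013 without a8, a9 and a17. In aortas under HFD, Slc23a2 in EC-EGFR-WT gave -0.041 and Akr1a1 in EC-EGFR-KO gave 0.056 without both near-identical libraries. With the adipocyte score as covariate they gave -0.29 and 0.0042, and averaged over genotypes Slc23a1 gave 0.021 and Slc23a2 gave -0.12.

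Leaving out 1 library gave the following ranges of log2 fold changes. In kidney under HFD they were -0.042 to 0.038 for Ugp2, -0.012 to 0.077 for Slc23a1 and -0.014 to 0.12 for Miox in EC-EGFR-WT, and -0.021 to 0.26 for Slc23a2 in EC-EGFR-KO. For EC-EGFR-KO over EC-EGFR-WT in kidney they were -0.045 to 0.085 for Akr1a1, -0.014 to 0.073 for Slc23a1 and -0.033 to 0.11 for Miox under SFD, -0.28 to 0.11 for Gulo under HFD, and -0.28 to 0.010 for the Slc23a2 interaction. In aorta under HFD they were -0.012 to 0.12 for Akr1a1, -0.022 to 0.52 for Slc23a1 and -0.14 to 0.15 for Slc23a2 in EC-EGFR-WT, -0.091 to 0.0090 for Ugdh, -0.086 to 0.063 for Akr1a1 and -0.020 to 0.26 for Slc23a2 in EC-EGFR-KO, and -0.018 to 0.062 for Akr1a1, -0.22 to 0.055 for Slc23a1 and -0.0064 to 0.14 for Slc23a2 in the average. For EC-EGFR-KO over EC-EGFR-WT in aorta they were -0.047 to 0.030 for Ugdh and -0.065 to 0.18 for Slc23a2 under SFD, -0.0019 to 0.090 for Ugp2, -0.0066 to 0.33 for Slc23a1 and -0.0054 to 0.30 for Slc23a2 under HFD, and -0.15 to 0.0027 for Akr1a1 and -0.040 to 0.27 for Slc23a2 in the interaction.

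Alb in EC-EGFR-KO kidneys under HFD went from -0.58 to 0.65 without a7.

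Over all genes, 1011 calls for HFD in EC-EGFR-KO kidneys became 582 without a8, a9 and a17. In aorta, DESeq2 gave 51 calls in place of 8 for HFD in the average, 9 in place of 2 in EC-EGFR-WT, 4 in place of 0 in EC-EGFR-KO, and 25 in place of 0 for EC-EGFR-KO over EC-EGFR-WT under HFD. In edgeR without both near-identical libraries, EC-EGFR-KO over EC-EGFR-WT under HFD had 21 calls in place of 0. The average for HFD then had 1 in place of 8. Without a filter on low counts, edgeR gave 3 calls for HFD in the average and 1 in EC-EGFR-WT. No paired analysis was possible because every library has its own number and groups share none. Depth limits Gulo under SFD and in aorta, where 3 counts correspond to 0.0632 to 0.155 FPM in kidney and 0.0844 to 0.176 FPM in aorta.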
